A study of Mus musculus with 12 samples.

Results

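Runx1, Runx2 and Runx3, the 3 RUNX transcription factors of the mouse, and Cbfb, their shared partner, were followed over 12 arrays of whole testis. They are 4 genes, set among 18193 genes with a named probe set. The members were all probe sets that the array's annotation table pairs with exactly 1 of these symbols, which gave 9 of 45101 probe sets: 6 of Runx1, 2 of Runx3, 1 of Cbfb and 0 of Runx2. Runx2 therefore has no values here. The family was chosen by the lower signal of Runx3 in the knockouts than in wild type on these same arrays, so the Runx3 differences between genotypes are given as a description, with no test. Runx1 and Cbfb came with it as family members.

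RUNX proteins bind DNA through a shared Runt domain and act with CBF-beta, which does not contact DNA itself but makes the binding of its partner tighter. They activate or repress genes depending on the cell and on cofactors such as the TLE corepressors. Runx1 is known above all for the origin of blood stem cells, Runx2 for bone formation, and Runx3 for cytotoxic T cells, sensory neurons and the gut epithelium. Each RUNX gene is known to have a distal and a proximal promoter.

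The groups were homozygous Sohlh1 knockout (Sohlh1-/-, 4 arrays), homozygous Sohlh2 knockout (Sohlh2-/-, 4 arrays) and wild type (4 arrays). All were on a hybrid background of C57BL/6 and 129S5/SvEvBrd, at postnatal day 7 and with no treatment named. Both genes encode germ cell transcription factors of the basic helix-loop-helix class, and on day 7 the germ cells of the testis are spermatogonia. RNA of 3 testes from separate animals was pooled for each array, so the spread is that between pools. Values are MAS5 signals on a linear scale, and the number of arrays limits their precision.

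On 2 arrays the targeted genes went against the labels. The Sohlh1 signal was 104, 61.0, 50.2 and 595 for Sohlh1 knockout 2, 3, 4 and 5, as labelled, against 1125 to 1233 in wild type. The fourth of these also had a low Sohlh2 signal, 94.4. The Sohlh2 signal was 1847, 157, 93.6 and 73.2 for Sohlh2 knockout 1, 3-1, 4 and 5, as labelled, against 885 to 1200.3 in wild type. The first of these also had a low Sohlh1 signal, 126. On Sohlh2 knockout 3-1, 4 and 5 the Sohlh1 signal was 465 to 563. On Sohlh1 knockout 2, 3 and 4 the Sohlh2 signal was 1556 to 1783. Each of the 2 arrays thus lay near the other knockout in both signals, so comparisons between the knockouts may mix the genotypes. Whether labels were swapped was not tested. Groups below are as labelled, and values are repeated without these 2 arrays. The 3′ to 5′ signal ratio of the Gapdh control, a measure of RNA quality, was 1.63 on the array labelled Sohlh2 knockout 1 and 1.17 on the one labelled Sohlh1 knockout 2, and 0.744 to 0.818 on the other 10 arrays. Probe sets were tested where the signal exceeded 48.6, the 40th percentile of all signals, on at least 4 arrays. Markers of the labelled tissue were present: 12 of 12 Sertoli cell genes and 12 of 12 germ cell genes with a probe set met this filter.

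The promoters of the RUNX genes are printed because SOHLH1 and SOHLH2 belong to a class of factors that bind E-boxes, and because RUNX proteins are known to act on RUNX promoters. The arrays measured no binding. Sequences are those of RefSeq on GRCm38.p6, from 250 bases before to 50 bases after the start of the gene, 5′ to 3′ on the strand of the gene. The first lies at chr4:135120395-135120694 (plus strand) and the second at chr4:135152295-135152594 (plus strand). Capitals mark the E-box CANNTG and the RUNX motif TGTGGT, each searched on both strands.
Runx3 distal promoter: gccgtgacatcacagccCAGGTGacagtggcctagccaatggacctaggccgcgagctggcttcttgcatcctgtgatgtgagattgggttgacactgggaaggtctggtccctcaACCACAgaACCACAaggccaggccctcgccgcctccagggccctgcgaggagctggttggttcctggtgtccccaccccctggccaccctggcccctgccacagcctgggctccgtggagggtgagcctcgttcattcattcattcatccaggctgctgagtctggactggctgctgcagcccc
Runx3 proximal promoter: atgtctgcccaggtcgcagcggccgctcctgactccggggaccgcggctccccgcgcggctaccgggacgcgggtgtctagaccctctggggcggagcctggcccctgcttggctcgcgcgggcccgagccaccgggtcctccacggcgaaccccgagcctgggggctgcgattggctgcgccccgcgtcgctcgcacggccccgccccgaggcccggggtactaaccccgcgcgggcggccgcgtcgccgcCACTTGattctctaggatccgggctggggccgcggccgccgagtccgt

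The distal Runx3 promoter held 1 E-box, 233 bases before the start, and 2 copies of the RUNX motif, 134 and 126 bases before it. The proximal promoter held 1 E-box just after the start and no RUNX motif. An E-box was present in 72.3% of 32851 mouse promoters of this length, the RUNX motif in 16.8%, and at least 2 copies of the RUNX motif in 1.81%. The E-box match thus does not set Runx3 apart from most genes, and a match of letters is not a binding site.

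The 2 RUNX motifs of Runx3 formed the stretch AACCACAGAACCACA, which was searched for after the sequence had been seen. It occurred in 4 of the 32851 promoters (0.0122%), those of Runx1, Runx2, Runx3 and Gm16225, a long non-coding RNA gene that starts on the other strand beside Runx3, so that its promoter overlaps that of Runx3. In Runx2 both E-boxes of the promoter overlap a RUNX motif. The stretch is set in capitals in the lines below, which come from chr16:92826026-92826055 (minus strand), chr17:44814584-44814613 (minus strand) and chr4:135120502-135120531 (plus strand), so that a reader can compare the 3 genes.
Runx1 distal promoter: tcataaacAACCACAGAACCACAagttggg
Runx2 promoter: tcacaaacAACCACAGAACCACAagtgcgg
Runx3 distal promoter: ggtccctcAACCACAGAACCACAaggccag
It lay 28 bases after the gene start in Runx1, 23 after it in Runx2 and 135 before it in Runx3. The Cbfb promoter held 0 matches to either motif, and the distal Runx1 promoter held 3 E-boxes.

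Runx3 read much lower in both knockouts on 1 of its 2 probe sets. Probe set 1440275_at, which the annotation ties to an expressed sequence tag, gave signals of 55.7, 64.3, 61.1 and 39.7 for Sohlh1 knockout 2, 3, 4 and 5. It gave 18.3, 92.7, 45.7 and 22.5 for Sohlh2 knockout 1, 3-1, 4 and 5, against 218, 212, 277 and 209 for wild type 3, 4, 5 and 6. All 8 knockout arrays lay below all 4 wild-type arrays, and the arrays of the 2 knockouts overlapped.

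The means of this probe set were 55.2 ± 10.9 in the Sohlh1 knockout, 44.8 ± 34.2 in the Sohlh2 knockout and 229 ± 32.3 in wild type (SD, n = 4 each). The Sohlh1 knockout stood at 24.1% of wild type and the Sohlh2 knockout at 19.6%. Without the 2 arrays of doubted label these shares were 26.4% and 23.4%, from 3 arrays per knockout. On the scale of log2(signal + 14.2), where the added constant shrinks the differences of dim probe sets, the difference was -1.81 (SE 0.32) for the Sohlh1 knockout and -2.20 (SE 0.32) for the Sohlh2 knockout. With the median of all signals added in place of 14.2, the Sohlh2 value was -1.32 and the Sohlh1 value -1.17, more than 1.5 times smaller. The comparisons share the wild-type arrays. These are the values that led to the choice of the family, and they were not tested. In whole testis fewer cells of a type and less RNA per cell cannot be told apart.

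For scale, the arrays of the Sohlh1 knockout all lay below those of wild type for 6.08% of the 28694 probe sets tested, and those of the Sohlh2 knockout did so for 4.69%. Between the 2 knockouts the arrays overlapped. The difference between the Sohlh2 and the Sohlh1 knockout was -0.39 on the log2 scale (95% interval -1.07 to 0.30), given without a test because it shares arrays with the values that chose the gene. It was -0.16 without Sohlh2 knockout 1, -0.21 without Sohlh2 knockout 5, -0.73 without Sohlh2 knockout 3-1 and -0.27 without both arrays of doubted label. The spread was wider in the Sohlh2 knockout (coefficient of variation 76.3%) than in the Sohlh1 knockout (19.8%) and wild type (14.1%), and 3 of its 4 arrays lay below 48.6, the value used as the filter for dim probe sets. Without the 2 arrays of doubted label these coefficients were 66.8% in the Sohlh2 knockout and 7.16% in the Sohlh1 knockout (n = 3 each). The lowest Sohlh2 value, 18.3, was that of the array labelled Sohlh2 knockout 1, whose label is in doubt and whose 3′ to 5′ ratio was the highest, and the part of that ratio in the result was not tested.

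The other Runx3 probe set did not share the pattern. Probe set 1421467_at, tied to the RefSeq transcript of Runx3, read 10.1, 54.3, 74.6 and 25.3 in the Sohlh1 knockout and 42.8, 78.9, 35.1 and 15.8 in the Sohlh2 knockout, against 8.25, 14.5, 11.4 and 100.5 in wild type. The 3 groups overlapped, and only 4 of the 12 arrays exceeded 48.6. Its means were 41.1 ± 28.9 in the Sohlh1 knockout, 43.1 ± 26.4 in the Sohlh2 knockout and 33.6 ± 44.6 in wild type (SD, n = 4 each), and 1 array, wild type 6, supplied most of the wild-type mean. The log2 differences were 0.41 (SE 0.56) and 0.51 (SE 0.56) for the Sohlh1 and the Sohlh2 knockout against wild type, with 95% intervals of -0.79 to 1.6 and -0.68 to 1.71. With 1 array left out they ran from 0.12 (without Sohlh1 knockout 4) to 0.95 (without wild type 6) for the Sohlh1 knockout, and from 0.24 (without Sohlh2 knockout 3-1) to 1.06 (without wild type 6) for the Sohlh2 knockout. Without both arrays of doubted label they were 0.51 and 0.48. The fall of Runx3 therefore rests on a single probe set. Where each probe set lies in the gene, and whether they read the same transcripts, was not analysed here.

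**Figure D1:**
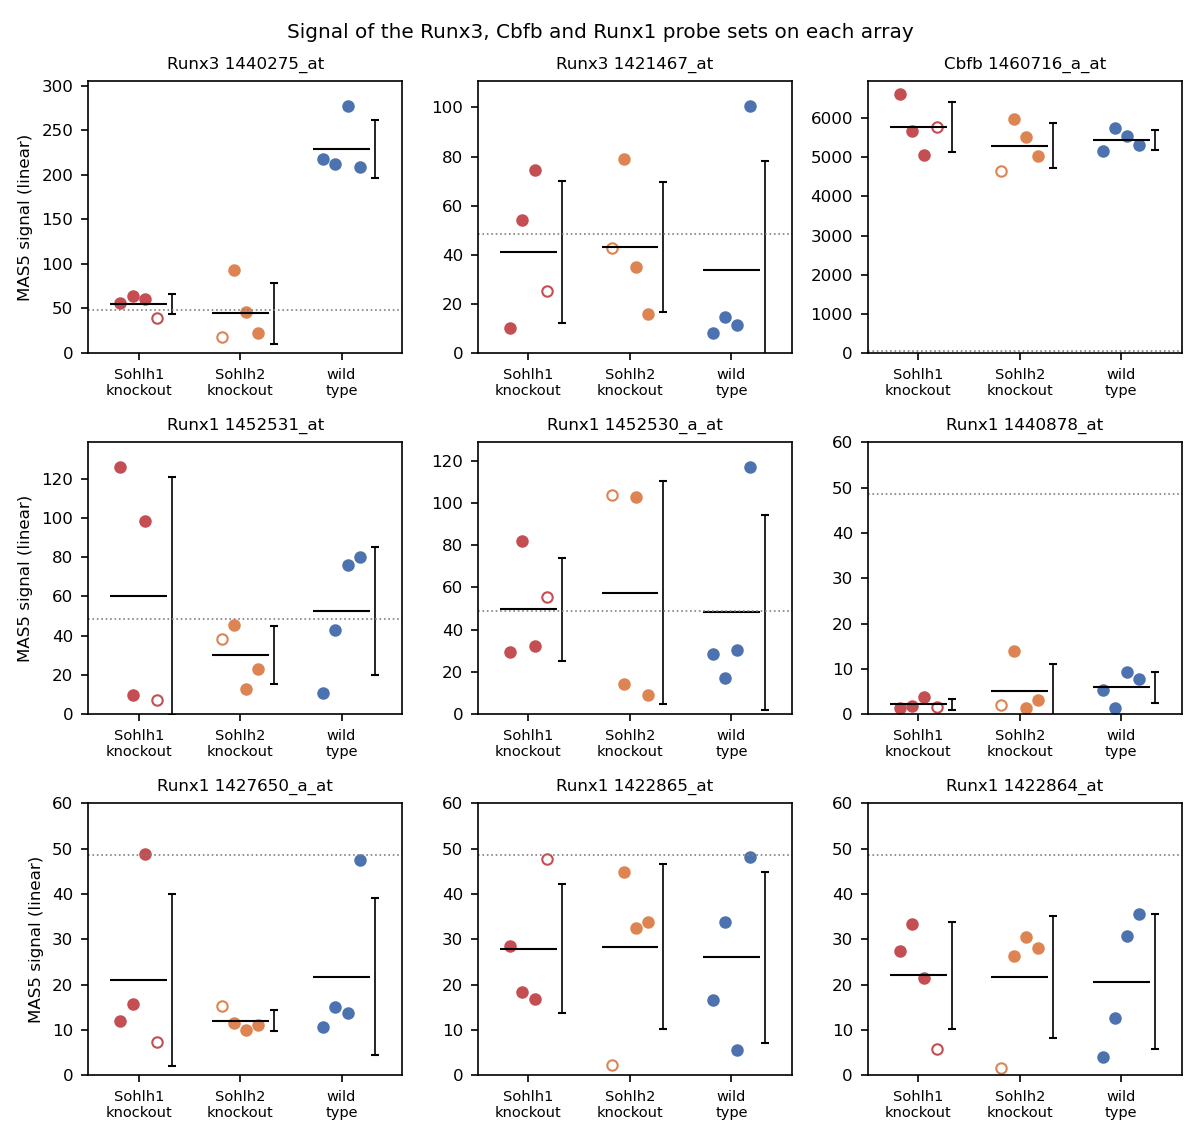
MAS5 signal (linear, y axis) of the 9 member probe sets in each group, with a point per array, a line at the mean and a bar of 1 SD beside it (cut off at 0 where it would go below); open points are the 2 arrays of doubted label and the dotted line is the filter value of 48.6. Runx3 1440275_at lies at 209 to 277 in wild type and at 92.7 or lower on every knockout array, while the groups overlap for all other members.

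Cbfb was bright on every array and did not pass the test in any comparison. This gene, whose product partners all RUNX factors, read 6610.0, 5661, 5057 and 5779 in the Sohlh1 knockout and 4649.8, 5992, 5532 and 5031 in the Sohlh2 knockout, against 5166, 5748, 5545 and 5304 in wild type (probe set 1460716_a_at). The groups overlapped, and the highest array (Sohlh1 knockout 2) and the lowest (Sohlh2 knockout 1) were both knockout arrays. The means were 5777 ± 639 in the Sohlh1 knockout, 5301 ± 585 in the Sohlh2 knockout and 5441 ± 258 in wild type (SD, n = 4 each). Its log2 fold change was 0.08 (95% interval -0.13 to 0.29, limma adjusted p = 0.746) in the Sohlh1 knockout and -0.04 (-0.25 to 0.17, adjusted p = 0.892) in the Sohlh2 knockout. Between the Sohlh2 and the Sohlh1 knockout it was -0.12 (-0.33 to 0.09, adjusted p = 1). For comparison, 2.09% of tested probe sets passed in the Sohlh1 knockout, 1.55% in the Sohlh2 knockout and 0% between the knockouts, where 767 (2.67%) had an unadjusted p under 0.05.

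Runx1, the blood and endothelial member of the family, was dim on all 6 of its probe sets. Of these, 1422864_at, 1422865_at and 1440878_at exceeded 48.6 on 0 arrays, and 1427650_a_at did so on 1, with 48.9 on the array labelled Sohlh1 knockout 4. They were not tested. Their signals ran from 1.33 to 48.9 in the Sohlh1 knockout, 1.41 to 44.8 in the Sohlh2 knockout and 1.39 to 48.2 in wild type, and the groups overlapped on each of them.

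The other Runx1 probe sets, 1452530_a_at and 1452531_at, only just met the filter, on 5 and 4 arrays. Probe set 1452530_a_at averaged 49.7 ± 24.5 in the Sohlh1 knockout, 57.8 ± 53.3 in the Sohlh2 knockout and 48.3 ± 46.4 in wild type (SD, n = 4 each). Its log2 fold changes were 0.20 (95% interval -1.04 to 1.44, limma adjusted p = 0.911) and 0.06 (-1.18 to 1.30, adjusted p = 0.978) against wild type. Probe set 1452531_at read 126, 9.68, 98.3 and 7.15 in the Sohlh1 knockout and 38.4, 45.4, 12.7 and 23.2 in the Sohlh2 knockout, against 10.9, 42.9, 76.3 and 80.4 in wild type. High and low arrays occurred in both the Sohlh1 knockout and wild type. Its log2 fold changes were -0.15 (-1.48 to 1.17, adjusted p = 0.937) and -0.49 (-1.82 to 0.83, adjusted p = 0.777). Each of these intervals reaches past a 2-fold change, which is 1 on the log2 scale, in at least 1 direction. The direction of several of these small differences turned when 1 array was left out.

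**Figure D2:**
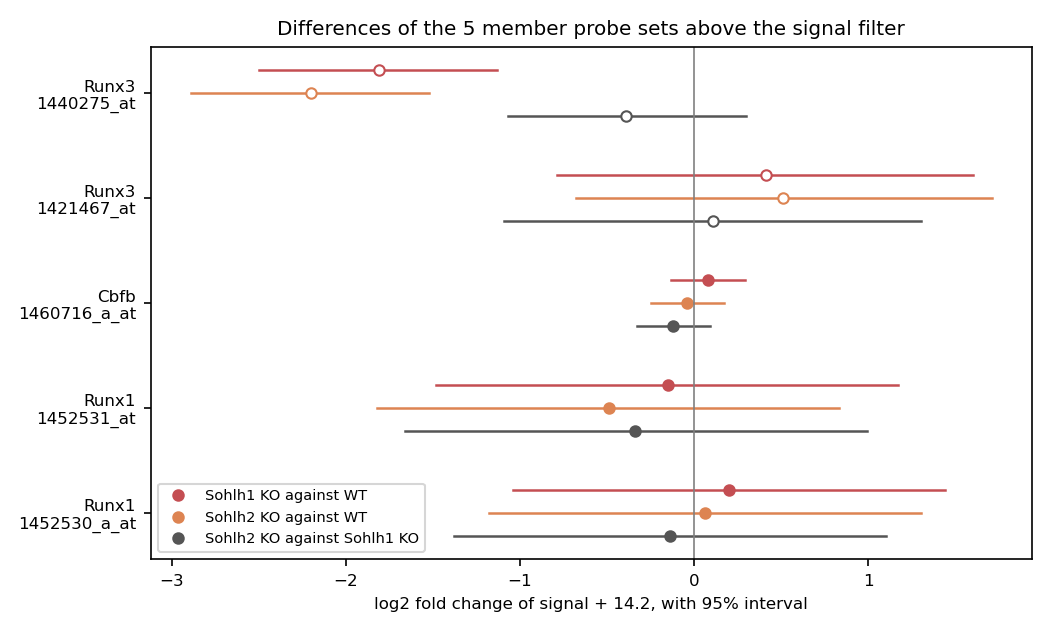
Log2 fold change of signal + 14.2 (x axis) with the 95% interval from limma for the 5 member probe sets that met the filter, in 3 comparisons; open points are Runx3, which was chosen for its fall and not tested. The Runx3 1440275_at points against wild type lie at -1.81 and -2.20 and are a description. Their bars cannot serve as a test, since the gene was chosen for this fall. The Cbfb bars are the shortest, and those of Runx1 and of Runx3 1421467_at are wide.

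The genes whose signals over the 12 arrays were most like those of Runx3 1440275_at were sought among 13701 genes. Each gene was ranked by whichever of its tested probe sets lay closest, so other probe sets of a named gene may differ. Likeness was the root mean square difference, over the arrays, of log2(signal + 14.2) after each gene was centred on its own wild-type mean, so smaller is closer; the median gene stood at 1.65. The nearest was Kit, the receptor of stem cell factor on differentiating spermatogonia, at 0.446. Next came Rab11fip4, a partner of Rab11 in membrane traffic (0.492), Mbnl3, a splicing regulator (0.501), Ccng1, cyclin G1 (0.511), and Slc27a2, an acyl-CoA synthetase (0.570). Ebf3 (0.582) and Tbx1 (0.586), both transcription factors, and Crabp1, which binds retinoic acid (0.590), completed the 8 nearest. Since Runx3 was centred on wild type and differed mostly between genotypes, closeness here mostly means a fall of like size in both knockouts. For the same reason the 1.65 of the median gene mostly restates the fall of Runx3 itself and is no independent yardstick.

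Kit averaged 453 ± 91.2 in the Sohlh1 knockout and 442 ± 76.6 in the Sohlh2 knockout, against 1739 ± 176 in wild type (SD, n = 4 each), or log2 differences of -1.92 and -1.95 against wild type. Mbnl3 averaged 401 ± 49.6 in the Sohlh1 knockout and 398 ± 18.5 in the Sohlh2 knockout, against 1422 ± 159.9 in wild type. Ebf3 averaged 55.4 ± 5.90 in the Sohlh1 knockout and 55.1 ± 20.3 in the Sohlh2 knockout, against 210.0 ± 85.3 in wild type. The other 5 had differences of -1.64 to -2.47. Without the 2 arrays of doubted label Kit stayed nearest (0.409), Mbnl3, Ccng1, Slc27a2 and Rab11fip4 filled the next places, and Ebf3, Tbx1 and Crabp1 moved to ranks 9, 13 and 17.

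**Figure D3:**
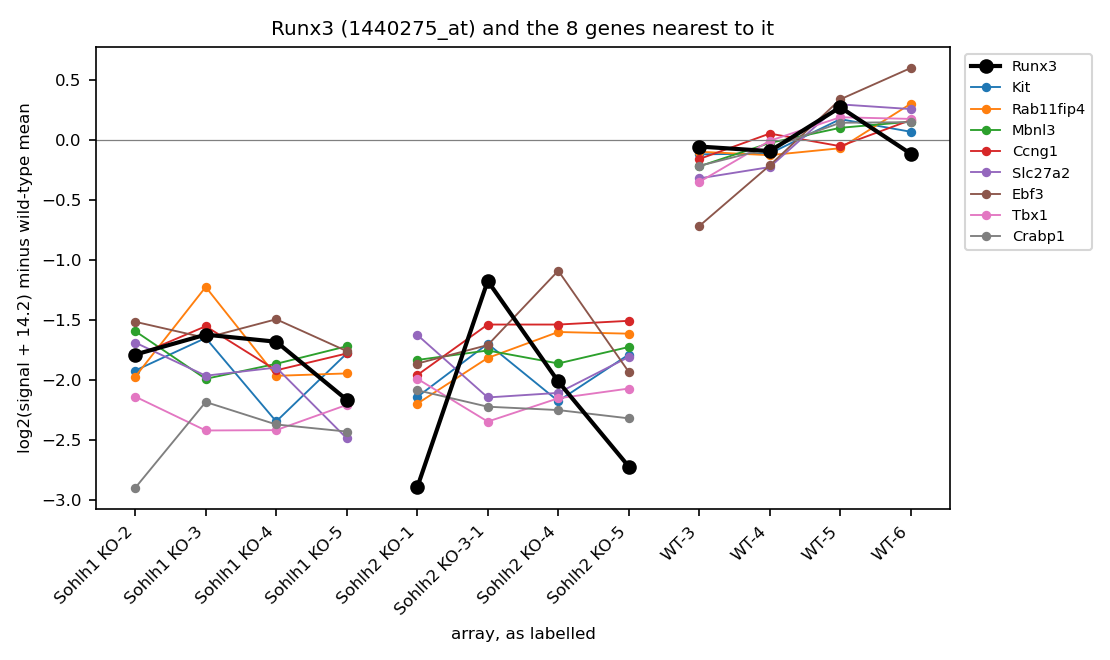
Log2(signal + 14.2) minus the wild-type mean (y axis) of Runx3 1440275_at (black) and of the 8 genes nearest to it, on each array as labelled (x axis); lines join arrays of a group only to guide the eye, and the arrays have no order. All 9 genes lie at -1.09 or lower on each knockout array, and Runx3 has the widest spread among the Sohlh2 knockout arrays.

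Genes that work with RUNX factors were read from a list of partners and corepressors, among them the TLE corepressors, the histone acetyltransferases Ep300 and Kat6a, the SMADs and Yap1. Of 37 listed 36 were tested, 1 probe set each, and 0 rose and 0 fell in the Sohlh1 knockout and in the Sohlh2 knockout. Their log2 fold changes ran from -0.47 to 0.35 (median 0.02) in the Sohlh1 knockout and from -0.44 to 0.33 (median -0.04) in the Sohlh2 knockout. Over the 13699 genes tested, the medians were 0.033 and 0.022, with 1.06% higher and 1.83% lower in the Sohlh1 knockout and 0.898% higher and 1.28% lower in the Sohlh2 knockout.

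Among genes known as RUNX targets in blood, bone, T cells and neurons, 16 of 31 listed were tested, and 1 fell in each knockout, Ccnd1, the cyclin D1 gene of the G1 phase. Ccnd1 averaged 811 ± 104 in the Sohlh1 knockout and 922 ± 89.1 in the Sohlh2 knockout, against 1552 ± 57.7 in wild type (SD, n = 4 each). Its log2 fold change was -0.93 (SE 0.11) for the Sohlh1 knockout, with a limma adjusted p of 0.000377, and -0.75 (SE 0.11) for the Sohlh2 knockout, with 0.00248. The list medians were -0.03 and 0.01. Csf1r, a RUNX1 target of macrophages, had 0.10 and 0.15 without passing (adjusted p = 0.703 and 0.559), and Itgae, a Runx3-dependent integrin of T cells, had -0.03 and 0.31 (adjusted p = 0.967 and 0.533). After Ccnd1 the lowest values in the Sohlh2 knockout were those of Cd8a at -0.61 (limma adjusted p = 0.4), Sp7, a bone transcription factor, at -0.43 (0.484) and Ntrk3, a neurotrophin receptor, at -0.34 (0.722). In the Sohlh1 knockout Cd8a, Sp7 and Ntrk3 had 0.06, -0.28 and 0.08 (0.947, 0.655 and 0.94). The highest values in the Sohlh2 knockout were those of Itgae at 0.31, Spi1 at 0.26 (0.704) and Bcl2l11 at 0.18 (0.795).

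TGF-beta and BMP signals, which are known to act with RUNX factors through SMADs, likewise held 1 changed gene. Of 24 listed 22 were tested, and Bmp7, a secreted BMP ligand, fell in both knockouts. It averaged 141 ± 32.4 in the Sohlh1 knockout and 158 ± 4.65 in the Sohlh2 knockout, against 372 ± 69.1 in wild type (SD, n = 4 each). The log2 fold change was -1.32 (SE 0.18) for the Sohlh1 knockout, with a limma adjusted p of 0.000986, and -1.14 (SE 0.18) for the Sohlh2 knockout, with 0.00374. The list medians were 0.10 and 0.04.

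Runx3 is a gene of T and NK cells, so their markers were read beside it. Of 12 measured markers 10 exceeded 48.6 on at most 3 of the 12 arrays, and Cd3d, Cd4, Klrd1, Ncr1 and Nkg7 did so on 0. The summed signal of the 12 ranged from 322 to 516 in the Sohlh1 knockout, 307 to 443 in the Sohlh2 knockout and 317 to 482 in wild type. Cd2 reached 76.1, Cd5 58.5, Cd3e 54.8 and Cd3d 34.5 at most. Cd8a, the coreceptor of cytotoxic T cells, exceeded 48.6 on 10 arrays, with a highest signal of 102, and Thy1 did so on 11. The 2 markers tested, Cd8a and Thy1, passed in neither knockout: the log2 fold changes of Cd8a were 0.06 and -0.61 (limma adjusted p = 0.947 and 0.4), and those of Thy1, which other cells also make, 0.77 and 0.54 (0.209 and 0.432). Leukocyte markers, most of them of macrophages, summed to 2766 to 3453 in the Sohlh1 knockout, 2951 to 3971 in the Sohlh2 knockout and 2446 to 3588 in wild type, and 0 of 10 changed.

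Of the genes of differentiating spermatogonia, leaving out Sohlh1 and Sohlh2 themselves, 5 of 9 fell in each knockout, 0 rose and 4 did not pass, with list medians of -1.13 and -1.20. Crabp1, Dmrtb1, Kit and Esx1 had the smallest p-values, and their log2 fold changes in the Sohlh1 knockout were -2.47, -2.51, -1.92 and -2.13 (limma adjusted p from 1.03e-06 to 0.000486). Among those that did not pass, Stra8, a gene induced by retinoic acid, had -0.46 and -0.38 in the Sohlh1 and the Sohlh2 knockout (adjusted p = 0.11 and 0.215), and Ccnd2, cyclin D2, had -0.06 and 0.15 (0.792 and 0.519). Earlier results of these samples had already shown the fall of the 5. Genes of undifferentiated spermatogonia went both ways, with 3 of 15 higher and 2 lower in each knockout (medians 0.24 and 0.32). Gfra1, the GDNF receptor, and Pou5f1, the pluripotency factor OCT4, had log2 fold changes of 0.97 and 1.00 in the Sohlh1 knockout (limma adjusted p = 0.00287 and 0.01). Neurog3 and Sox3, transcription factors of early spermatogonia, had -1.19 and -1.11 (adjusted p = 0.00146 and 0.000408). Without the 2 arrays of doubted label 4 rose and 2 fell in the Sohlh2 knockout, and the counts in the Sohlh1 knockout and of differentiating genes were as before.

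Among 12 tested markers of germ cells at any stage 2 rose in each knockout, Dppa4 and Stk31, and 0 fell. The list medians were -0.13 and -0.04, against 0.033 and 0.022 over the 13699 genes tested. Of those genes 1.83% and 1.28% were called lower and 1.06% and 0.898% higher, so 0 of 12 falling says little by itself. Without the 2 arrays of doubted label 1 fell in the Sohlh1 knockout. Their summed signal was 32145 to 36614 in the Sohlh1 knockout, 34175 to 37225 in the Sohlh2 knockout and 33358 to 37187 in wild type. The part of germ cell stage in the Runx3 values was not tested. In the other lists 0 genes passed in either knockout. Tested there were 12 Sertoli, 5 Leydig, 6 peritubular muscle, 8 endothelial and 3 bone and cartilage genes. Given the low shares over all genes, 0 says little about lists this small. Their medians in the Sohlh1 and the Sohlh2 knockout were 0.12 and 0.11 for Sertoli cells, -0.02 and -0.16 for Leydig cells, -0.13 and -0.09 for peritubular muscle, 0.18 and -0.04 for endothelium, and 0.07 and -0.18 for bone and cartilage. Between the knockouts 0 genes of any list changed on the 12 arrays. Without the 2 arrays of doubted label 1 gene of differentiating spermatogonia rose and 1 fell between the knockouts. With Sohlh1 and Sohlh2 left out of that list, 0 rose and 0 fell.

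**Figure D4:**
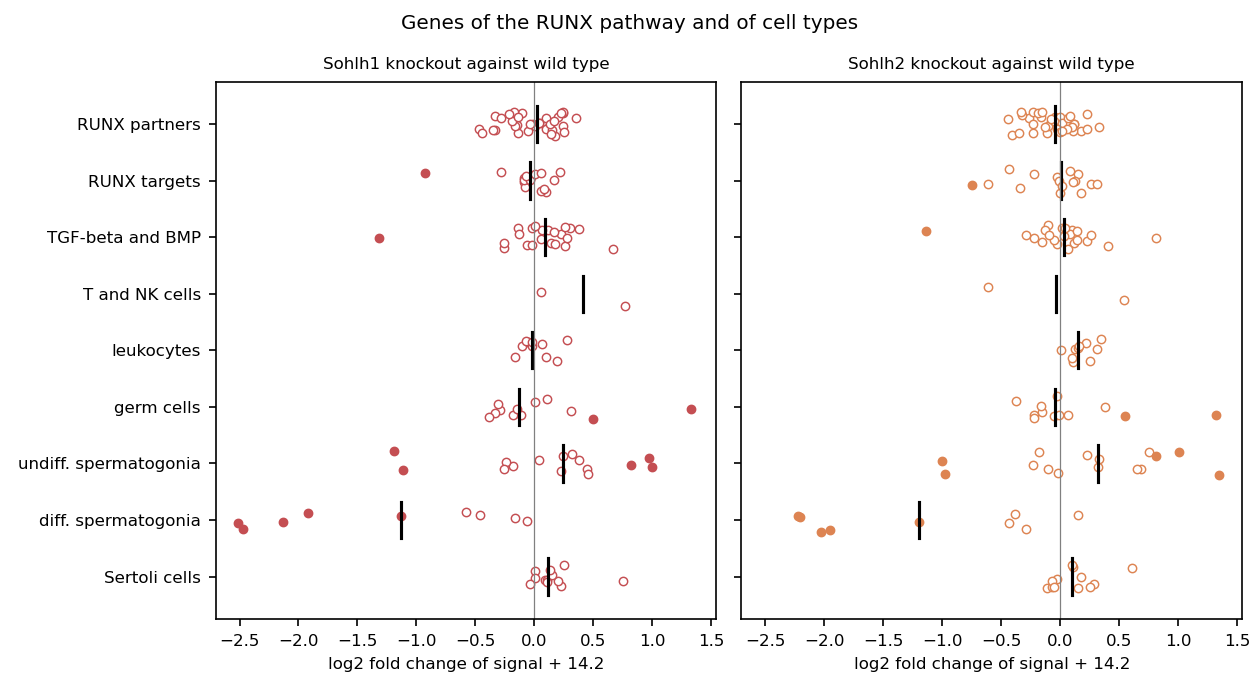
Log2 fold change of signal + 14.2 (x axis) of each tested gene on 9 lists (y axis), in the Sohlh1 knockout (left) and the Sohlh2 knockout (right) against wild type; filled points passed limma's adjusted p of 0.05, open points did not, and bars are list medians. RUNX partners lie between -0.47 and 0.35 with no filled point, and the filled points sit mostly among spermatogonial genes.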

How the data were processed

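The authors deposited linear signal intensity values. The tools were MAS5 and GCOS, according to the submitters' processing notes, with versions not given in the sources used here. Detection calls were not used here. Each array has the same 2% trimmed mean. Per the labels' protocols, labelling started from an oligo(dT) primer, so signals lean to the 3′ end.

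Intensity was turned to log2(value + 14.2), the 20th percentile of non-control values, with no further normalization. The filter was a signal over 48.6 (40th percentile) on 4 or more arrays, which 5 of 9 members met. Each probe set was fitted separately in limma 3.58.1 (R 4.3.3; lmFit, eBayes with trend, two-sided) over 12 arrays with genotype as the only term, with Benjamini-Hochberg adjustment over 28694 probe sets. A gene rose or fell where this adjusted p was under 0.05. The steps were tested on simulated data. P-values measure the spread between pools.

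Symbols came from the platform annotation: 34945 probe sets had 1 symbol, 932 several and 9160 none. By Entrez identifier 34741 matched RefSeq and 0 symbols changed. The 13 gene lists took 1 probe set per gene, that of highest mean. The rule for named genes took all members, the targeted genes, up to 4 called genes per list by smallest p, and the 8 genes nearest to Runx3. Csf1r, Itgae, Sp7, Ntrk3, Spi1, Bcl2l11, Stra8, Ccnd2, single lymphocyte markers and example partners were named outside it. Of these, Csf1r, Itgae, Cd8a, Thy1, Sp7, Ntrk3, Spi1, Bcl2l11, Stra8 and Ccnd2 were named after their values were seen. Members and lists were chosen with earlier results of these data known. Promoters were from RefSeq, GRCm38.p6, with all 4 genes matched. Figures used matplotlib 3.10.9.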

Additional observations from a re-analysis of the deposited data

Results flagged for a closer look

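Within groups of 4, 3 of 27 combinations of member probe set and group had an array far from the others, where chance gives about 1 in 20. Runx3 1440275_at read 277 on wild type 5, above the 209 to 218 of the other wild-type arrays. Runx3 1421467_at read 100.5 on wild type 6, against 8.25 to 14.5 on the rest of that group. Runx1 1422864_at read 1.49 on the array labelled Sohlh2 knockout 1, against 26.4 to 30.5 on the rest; all of these lie below the filter value.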

How the results depend on the processing

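No alternative made a Runx1 or Cbfb probe set pass (adjusted p from 0.529 to 1 over 234 values). In 30 of those the small difference changed sign. With 1 array left out, Runx1 1452530_a_at ran from -0.05 to 0.64 in the Sohlh1 knockout, -0.31 to 0.50 in the Sohlh2 knockout and -0.51 to 0.27 between Sohlh2 and Sohlh1 knockouts. Runx1 1452531_at ran from -0.62 to 0.29 in the Sohlh1 knockout and -0.78 to 0.13 between knockouts, and Cbfb from -0.10 to 0.02 in the Sohlh2 knockout. Runx1 1452530_a_at was -0.08 in the Sohlh2 knockout without a log offset and 0.02 between knockouts with the offset at the median, where 1452531_at was 0.01 in the Sohlh1 knockout. With the replicate block that reads 3-1 as 3, the values between knockouts were 0.02 for 1452531_at and 0.00 for Cbfb, and Cbfb was 0.01 in the Sohlh2 knockout. Without the 2 arrays of doubted label 1452530_a_at was -0.31 and Cbfb 0.02 in the Sohlh2 knockout, and 1452531_at 0.29 in the Sohlh1 knockout. Without those and the array labelled Sohlh1 knockout 2, 1452530_a_at was -0.31 and Cbfb 0.02 in the Sohlh2 knockout, and Cbfb was -0.02 in the Sohlh1 knockout and 0.04 between knockouts. Runx3 1440275_at kept its sign against wild type under every alternative run, from -2.07 to -1.17 in the Sohlh1 knockout and -2.65 to -1.32 in the Sohlh2 knockout. That outcome was close to fixed, since the gene was chosen for this fall and all knockout arrays lay below all wild-type arrays. The kept sign is therefore no support for the fall. Of 648 values of called list genes 4 rose above an adjusted p of 0.05, all with the replicate block below, and 2 more, Pou5f1 and Stk31 in the Sohlh1 knockout (0.01 and 0.011), failed the stricter threshold of 0.01. Runx3 1421467_at reached 1.29 in the Sohlh1 knockout with the replicate block.

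Over all probe sets, 600 changed in the Sohlh1 knockout, 445 in the Sohlh2 knockout and 0 between knockouts. These became 343 and 293 without a variance trend, 1227 and 1075 with array weights, 183 and 144 at adjusted p under 0.01, and 283 in the Sohlh2 knockout with only the 2 groups fitted. Without the 2 doubted arrays 9 changed between knockouts, and without 3 arrays 11, with 767 in the Sohlh2 knockout. With 1 array left out the counts ran from 230 to 1238 and from 202 to 503. In the Sohlh1 comparison they were 334, 374, 299 and 322 without Sohlh1 knockout 2, 3, 4 or 5, 1238 without Sohlh2 knockout 1, and 278, 251 and 230 without wild type 4, 5 or 6. In the Sohlh2 comparison they were 287, 230 and 277 without Sohlh2 knockout 3-1, 4 or 5, and 202, 203 and 208 without wild type 4, 5 or 6. The cause was not tested.

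With the replicate number as a block (replicate block) the counts were 338 and 98, or 463 and 401 with 3-1 read as 3. With 3-1 as a number of its own, Bmp7, Gfra1, Neurog3 and Stk31 in the Sohlh2 knockout had adjusted p of 0.0814, 0.102, 0.0597 and 0.0684. Samples of the same number did not deviate together (9 pairs, r from -0.12 to 0.10), so the numbers were not taken as pairing. Among arrays of unlike number, those labelled Sohlh1 knockout 2 and Sohlh2 knockout 1 reached r = 0.38. These arrays also had the highest Gapdh 3′ to 5′ ratios, and the part of RNA quality was not tested. Dim signals limit Runx1 and the second Runx3 probe set.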
